A study of Mus musculus with 20 samples.

Results

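Brain RNA of the mouse line coded J17b was compared, gene by gene, with that of the line coded J1 lf/lf. All 5 libraries labelled with these genotypes were taken, 2 of J17b and 3 of J1 lf/lf, out of 20 libraries in the series, and every expressed gene was ranked. Both lines carry the strain label C57/Bl6J, and the series describes its animals as mice with knockouts of single isoforms, and their controls, kept on a normal diet. The series title names a JNK isoform. Neither the meaning of the codes nor the age or sex of the animals is stated in the labels, so the groups keep their labels here. The labels do not state whether replicates are separate animals, and each p-value below therefore speaks only for the spread among libraries, which may be technical. In the main fit that spread was taken from all 20 libraries.

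JNK1, encoded by Mapk8, is a kinase that stress signals and cytokines switch on through a cascade of upstream kinases, and it phosphorylates c-Jun and other proteins. Its transcripts carry one of a pair of alternative exons in the kinase domain, the 7a and 7b forms, which change how the kinase binds its partners. In the nervous system JNK acts on the cytoskeleton and on transcription, and in metabolic tissues it is known for dampening insulin signalling.

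The pair of alternative exons is shown because the series describes knockouts of single isoforms, and because the gene that holds them was among the few that differed. In the GENCODE mouse annotation release M21 on mm10, both lie on the minus strand of chromosome 14 within Mapk8 (33377898 to 33447158). They are coding exons of 72 bases, at 33390673 to 33390744 and at 33390242 to 33390313, and each is used by 2 of 5 coding transcripts. Capitals mark the 27 positions at which they differ, and the other 45 (62.5%) are the same. No label ties a line to either sequence, and the counts are per gene, so exon use was not analysed here.
Mapk8 exon 7, first in transcript order: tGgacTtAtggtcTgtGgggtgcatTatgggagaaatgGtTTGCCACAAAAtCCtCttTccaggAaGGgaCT
Mapk8 exon 7, second in transcript order: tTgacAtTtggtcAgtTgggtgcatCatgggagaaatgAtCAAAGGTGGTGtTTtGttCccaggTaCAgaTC

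The 5 libraries held 21395041 to 29414371 estimated counts, and 16063 of 23845 genes in the table were tested. Genes of neurons, myelin and astrocytes were present in all of them: the synaptic vesicle protein gene Syt1 at 1325 to 1568 CPM (counts scaled to library size), the myelin gene Mobp at 319 to 367 CPM and the glutamate transporter gene Slc1a2 at 2699 to 3452 CPM. Some libraries stood apart in ways that touch the results. The ribosomal RNA precursor Rn45s took 2.33% and 5.33% of the counts in J17b replicates 1 and 2, against 0.310% to 0.542% in J1 lf/lf. Anterior pituitary transcripts summed to 3147 CPM in J1 lf/lf replicate 3 and to between 3.66 and 16.2 CPM in the other 4 libraries. The library numbers in the titles are 4 to 6 for J1 lf/lf and 13 and 15 for J17b, so library order and genotype cannot be told apart. Over all 20 libraries Rn45s took 0.310% to 0.676% of the counts in those numbered up to 10 and 1.73% to 5.33% in those numbered above 10, with J17a on both sides. In bulk RNA, fewer cells of a type and less RNA per cell cannot be told apart either.

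Few genes separated the lines. Mapk8 itself was lower in J17b, and 4 transcripts were higher: the ribosomal precursor Rn45s, Lars2, Lrrc58 and the antisense transcript 4930488L21Rik. These 5 genes are 0.0311% of the 16063 tested (edgeR quasi-likelihood test, Benjamini-Hochberg adjusted p below 0.05), 4 higher (0.0249%) and 1 lower (0.00623%). All 5 had the same adjusted p of 0.0486, just under the threshold. At an unadjusted p below 0.05 there were 451 genes higher (2.81%) and 227 lower (1.41%), 678 in all (4.22%), where 5% of the genes tested would be 803. In the plot of the difference of each gene, the called genes are not the only ones away from 0. Cdr1 (log2 difference 3.47) and Malat1 (1.87), not called, lie further out than Mapk8 (-0.57) and Lrrc58 (0.52).

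**Figure D1:**
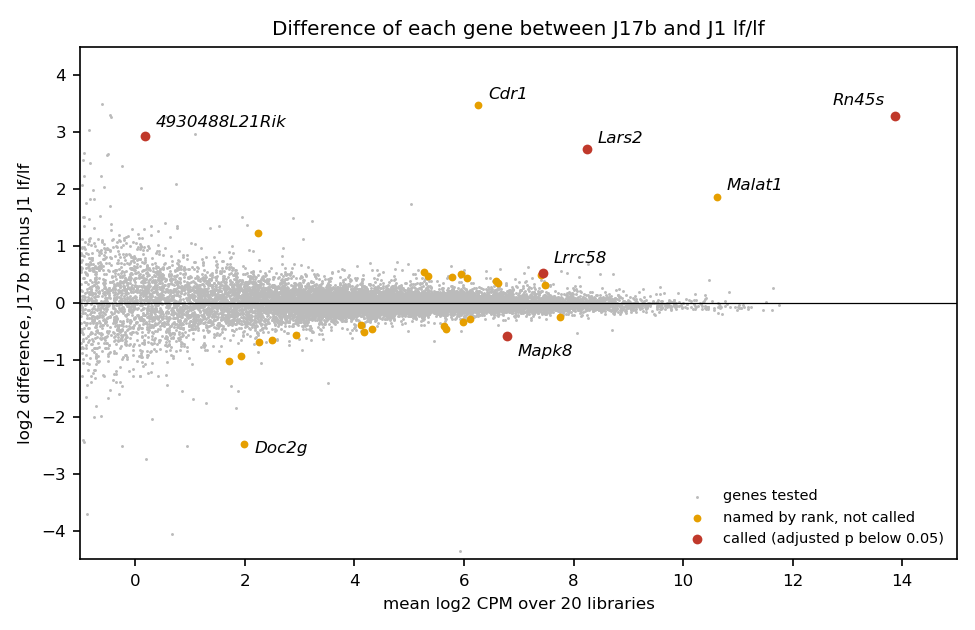
Each point is a gene tested, with its mean log2 CPM over the 20 libraries across and its log2 difference, J17b minus J1 lf/lf, upwards; 1115 genes with a mean below -1 and 4 genes beyond 4.5 are not drawn. The 5 called genes (red) include Mapk8 as the only one below 0, while orange points were named by rank and did not pass the test.

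Mapk8 stood at 74.6 and 79.2 CPM in J17b and at 122, 118 and 102 CPM in J1 lf/lf. Both J17b libraries lay below all 3 of J1 lf/lf, and also below the 15 libraries of the other groups, which ran from 104 to 140 CPM. The mean of 76.9 ± 3.21 CPM (SD, n = 2) was 67.3% of that in J1 lf/lf, 114 ± 10.4 CPM (SD, n = 3). The log2 difference was -0.57 (SE 0.10, 95% interval -0.78 to -0.36, edgeR adjusted p = 0.0486). Without any 1 of the 5 libraries in turn the difference ran from -0.64 to -0.52, and its adjusted p in edgeR from 0.1003 to 0.825, so the size held while the call did not.

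Mapk9 and Mapk10, which encode JNK2 and JNK3, did not differ beyond their spread. Mapk9 stood at 317 and 317 CPM in J17b against 317, 325 and 308 CPM, a log2 difference of 0.00 with a wide 95% interval of -0.63 to 0.64. In the same fit, Mapk9 was uneven in another group and reached down to 58.1 CPM. Mapk10, the neuronal form, stood at 369 and 366 CPM against 376, 357 and 342 CPM, a log2 difference of 0.04 (SE 0.07). Per unit of transcript length, the mean level of Mapk8 was 32.6 TPM (abundance scaled to transcript length and library) in J17b and 47.7 in J1 lf/lf, below that of Mapk9 (167.5 and 164 TPM) and Mapk10 (123 and 118 TPM) in both.

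The lower level of Mapk8 was set beside the pair of lines labelled J27b and J2 lf/lf, by testing the difference of the differences. Between J27b and J2 lf/lf the log2 difference of Mapk8 was -0.01 (SE 0.09). The difference of the differences was -0.56 (SE 0.14, 95% interval -0.84 to -0.28), with an edgeR adjusted p of 0.656 and an unadjusted p in the same fit of 0.00045. In that test 1 gene of 16063 (0.00623%) was called, the Rosa26 transcript, and 690 (4.30%) had an unadjusted p below 0.05. Among 71 tested genes within 5 Mb of Mapk8, Mapk8 not counted, 0 were called, 5 had an unadjusted p below 0.05 in edgeR, and the median log2 difference was 0.0082. Of these 71, 5 lay wholly above and 9 wholly below J1 lf/lf, beside 9.79% and 9.19% of all genes tested. On the lower-coordinate side the nearest tested genes, Arhgap22, Wdfy4, Lrrc18 and Vstm4, had log2 differences of -0.44, -0.20, -0.28 and -0.47. Arhgap22 and Vstm4 lay wholly below J1 lf/lf. On the other side the nearest, Ptpn20, Gdf10, Rbp3 and Zfp488, had log2 differences of 0.59, 0.43, -1.01 and 0.06. Of these only Gdf10 lay wholly above, and the others overlapped J1 lf/lf. Lrrc18, Ptpn20 and Rbp3 were near the floor, with J17b means of 0.57, 0.70 and 0.40 CPM.

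Ide and Btaf1, on chromosome 19, stood at about the same low level in both lines. Ide, which encodes an insulin-degrading protease, was at 51.9 and 61.7 CPM in J17b and 57.9, 54.2 and 55.1 CPM in J1 lf/lf. All 5 libraries lay below the other 15, at 79.1 to 113 CPM. Btaf1, a regulator of the TATA-binding protein, was at 38.8 and 43.9 CPM against 42.4, 43.5 and 36.7 CPM, with the other 15 libraries at 52.6 to 74.3 CPM. The log2 differences between the lines were 0.03 (95% interval -0.19 to 0.25) for Ide and 0.02 (-0.22 to 0.25) for Btaf1.

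**Figure D2:**
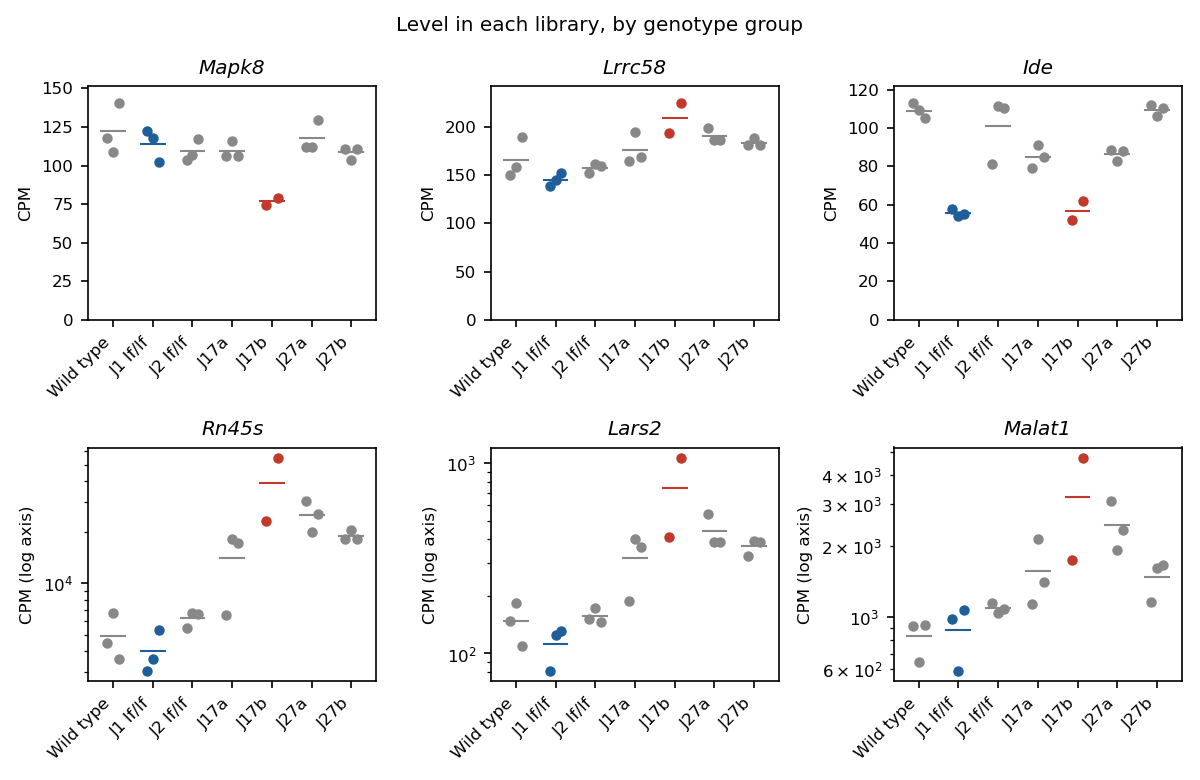
Points are libraries, placed by genotype group (J17b red, J1 lf/lf blue, others grey), with CPM upwards and a line at each group's mean; Rn45s, Lars2 and Malat1 have log axes. Mapk8 is lowest in the J17b libraries (74.6 and 79.2 CPM), and Ide is low in both lines, while Rn45s, Lars2 and Malat1 are highest in J17b replicate 2.

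The 4 transcripts that were higher in J17b were of different kinds. Rn45s, the precursor of the large ribosomal RNAs, reached 23400 and 54698 CPM against 3066, 3571 and 5311 CPM (log2 difference 3.29, SE 0.44, edgeR adjusted p = 0.0486). Lars2, annotated as the mitochondrial leucyl-tRNA synthetase (chromosome 9, 123366927 to 123462666), was at 411 and 1064 CPM against 81.3, 125 and 132 CPM, a log2 difference of 2.71 (SE 0.38). In both, J17b replicate 2 was more than 2 times replicate 1, and the group ranges did not overlap. The other 15 libraries spanned 3582 to 30554 CPM for Rn45s and 110 to 542 CPM for Lars2, so J17b replicate 1 lay inside that range and replicate 2 above it. With a term for title numbers above 10 the log2 differences were 1.85 for Rn45s and 1.70 for Lars2, with edgeR adjusted p of 0.450 and 0.495. J17a alone has libraries on both sides of that number, so the term rests on its replicate 1 against replicates 2 and 3. The cut also falls where the share of Rn45s changed, so here and below the term cannot test library order.

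Lrrc58, a leucine-rich repeat protein gene (chromosome 16, 37868389 to 37888858), was the called protein-coding gene with a modest rise. It stood at 193 and 224 CPM in J17b against 139, 145 and 152 CPM, 1.44-fold (log2 difference 0.52, SE 0.09, edgeR adjusted p = 0.0486). The other 15 libraries lay at 150 to 199 CPM, overlapping both lines. Group means were 166 CPM in Wild type and 158 in J2 lf/lf, and 176, 191 and 184 in J17a, J27a and J27b. With the term for title numbers above 10 the log2 difference was 0.38 (edgeR adjusted p = 0.664). 4930488L21Rik (chromosome 8, 93750147 to 93813722, minus strand) is annotated as antisense to Gnao1 and had few counts, 38 and 84 in J17b against 10, 4 and 12. It was at 1.68 and 3.96 CPM against 0.462, 0.134 and 0.526 CPM, a log2 difference of 2.94 (SE 0.53). Whether reads were counted by strand was not given in the sources used here, so those of this transcript and of Gnao1 cannot be told apart.

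These calls depended on single libraries of both lines. Without J17b replicate 2 no gene was called in edgeR (360 at an unadjusted p below 0.05), and the log2 differences were 2.56 for Rn45s, 1.87 for Lars2, 0.42 for Lrrc58 and 2.20 for 4930488L21Rik. Without J17b replicate 1, 24 genes were called, all higher. Without J1 lf/lf replicates 1, 2 or 3 in turn, edgeR called 2, 0 and 0 genes (727, 599 and 615 at an unadjusted p below 0.05), and none of the 5.

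The 15 top-ranked higher genes of at least moderate level, Rn45s, Lars2 and Lrrc58 among them, had log2 differences of 0.31 to 3.47, and in all 15 the higher J17b library was replicate 2. Cdr1, on the X chromosome opposite the noncoding gene C230004F18Rik, was at 68.7 and 529 CPM against 36.0, 23.3 and 21.7 CPM, a log2 difference of 3.47 (SE 0.67, edgeR adjusted p = 0.264). Malat1, an abundant nuclear noncoding RNA, was at 1749 and 4698 CPM against 983, 593 and 1073 CPM (log2 difference 1.87, SE 0.38). For both, J17b replicate 1 sat nearer to J1 lf/lf than to replicate 2, and without replicate 2 the log2 differences were 1.35 and 0.99. With the term for title numbers above 10 they were 2.36 and 1.22.

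The next genes by rank did not pass the threshold. Tnrc6b, a scaffold of microRNA silencing, stood at 169 and 234 CPM against 143, 149 and 137 CPM, a log2 difference of 0.50 (SE 0.10, edgeR adjusted p = 0.192), and of 0.24 without J17b replicate 2 and 0.28 with the title number term. Nsd1, a histone H3 lysine methyltransferase, stood at 182 and 218 CPM against 164, 164 and 156 CPM (log2 difference 0.31). Irf2bp2, a transcriptional corepressor, was at 64.1 and 71.5 CPM against 45.7, 45.3 and 52.4 CPM (0.50 on the log2 scale). Ino80d, a subunit of a chromatin remodeller, and Nufip2, an RNA-binding protein, had log2 differences of 0.45 and 0.44. In each of these genes the lines did not overlap, while the range of the other 15 libraries overlapped that of J17b.

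The remaining higher ones also missed the threshold. Caln1, a calcium-binding protein of neurons, was the most even, at 113 and 114 CPM against 89.3, 89.1 and 87.5 CPM (log2 difference 0.36, SE 0.09, edgeR adjusted p = 0.293). Ksr2, a scaffold of the MAP kinase pathway that leads to ERK, was at 41.1 and 57.3 CPM against 34.9, 36.7 and 34.1 CPM (0.48 on the log2 scale). Tcp11l1, Xkr6 and the predicted gene Gm608 had log2 differences of 0.55, 1.23 and 0.38. By size, 9530091C08Rik (2.97) and the imprinted antisense transcript Kcnq1ot1 (1.75; 30.3 and 103 CPM against 27.1, 11.9 and 20.98 CPM) completed the list. In 10 of the 15 top-ranked genes, the 3 called ones included, both J17b libraries lay above all 3 Wild type libraries, and in 0 of 15 did both lie above all 15 others. These genes were chosen for lying above J1 lf/lf, and the same shares over all genes tested were not taken. The counts are therefore no test of a difference from Wild type.

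The 15 top-ranked lower genes had log2 differences of 0.25 to 2.48 in size, and only Mapk8 among them passed the test. Doc2g, which encodes a synaptic protein found in olfactory bulb neurons, stood at 2.12 and 2.54 CPM in J17b against 3.24, 21.1 and 14.5 CPM, a log2 difference of -2.48 (SE 0.54, edgeR adjusted p = 0.264). J1 lf/lf replicates 2 and 3 were the high ones, and the other 15 libraries were at 1.64 to 4.54 CPM. Tshz1, a zinc finger transcription factor, was at 43.6 and 51.0 CPM against 55.8, 70.7 and 61.7 CPM (log2 difference -0.41). All 3 J1 lf/lf libraries were above the range of the other 15, 42.4 to 49.1 CPM.

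Sema4b, a membrane semaphorin, was the only lower gene of the 15 besides Mapk8 in which both J17b libraries lay below all 15 others. The 15 had been chosen for lying below J1 lf/lf, and the same share over all genes tested was not taken. It stood at 12.6 and 14.4 CPM against 19.01, 16.8 and 16.9 CPM, with the others at 14.5 to 19.8 CPM, and its log2 difference of -0.38 had an edgeR adjusted p of 0.673. Pacsin2, an endocytic membrane-bending protein, was at 55.9 and 56.9 CPM against 64.0, 73.1 and 76.8 CPM (log2 difference -0.34). Slain1, a microtubule plus-end protein, was at 61.6 and 60.1 CPM against 77.5, 71.7 and 72.8 CPM (-0.28 on the log2 scale). In both, the 2 J17b libraries were close to each other and below J1 lf/lf.

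The Notch target Hes5 was at 5.78 and 5.61 CPM against 9.34, 7.78 and 8.28 CPM, a log2 difference of -0.57. Neurod6, a transcription factor of forebrain excitatory neurons, had one of -0.45, and Fam171b one of -0.25. The log2 differences of the others were -0.45 for Thbd, which encodes thrombomodulin, -0.68 for the aminopeptidase gene Anpep, -1.02 for the transporter gene Slc47a1, -0.65 for the lubricin gene Prg4, -0.51 for Thsd4 and -0.94 for Lgr6. By size alone Dbh, the noradrenaline-making enzyme (-1.69), and Gm21949 (-0.85) also ranked, with unadjusted p in edgeR of 0.166 and 0.114, far from the adjusted threshold.

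The genes around JNK were then read as lists, beside all genes tested, of which 47.0% had a positive difference, with a median of -0.01. Of 20 upstream kinases of the JNK cascade 0 were called, 11 were positive and 9 negative, and their median was 0.01, or -0.01 without J1 lf/lf replicate 1. The kinases that phosphorylate JNK directly, Map2k4 and Map2k7, had log2 differences of -0.09 and 0.04. Map2k7 stood at 85.0 and 85.1 CPM against 76.2, 84.7 and 87.7 CPM. The smallest p belonged to Map3k9, a mixed-lineage kinase, at 99.1 and 112 CPM against 94.2, 89.0 and 84.7 CPM (log2 difference 0.24, unadjusted p in edgeR 0.0223). Both its J17b libraries lay above J1 lf/lf, as in 3 of the 20 kinases (15%, beside 9.79% of all genes tested), and 1 of 20 lay below (5%, beside 9.19%).

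Scaffolds that hold JNK with its activators were 9 in number, 2 positive and 7 negative, 0 called; their median was -0.04, and 0.0064 without J17b replicate 2. Mapk8ip1, the JIP1 scaffold, was at 421 and 342 CPM against 396, 419 and 430 CPM, a log2 difference of -0.12 with overlapping lines. Flna, an actin crosslinker, had the largest difference among them, 0.26 (59.6 and 81.9 CPM against 52.1, 63.7 and 61.8 CPM). Of 10 phosphatases that inactivate MAP kinases 8 were positive and 0 called, with a median of 0.06 that was -0.03 without J17b replicate 2. Dusp1, an immediate early gene as well, was at 21.7 and 36.9 CPM against 19.4, 15.4 and 23.4 CPM, which overlapped (log2 difference 0.60, SE 0.26).

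Downstream of JNK, AP-1 and ATF factors gave no call among 15 tested, with 6 positive and 9 negative. Jun, the namesake substrate, stood at 60.4 and 57.8 CPM against 61.0, 58.9 and 59.6 CPM, a log2 difference of -0.02. Fosl2 lay below in both J17b libraries (27.9 and 26.9 CPM against 31.4, 38.8 and 30.2 CPM, -0.29 on the log2 scale). Immediate early genes, which neurons switch on with activity, were 10 positive and 6 negative of 16, 0 called, with a median of 0.08 that was -0.0016 without J17b replicate 2 and -0.03 without J1 lf/lf replicate 1. Nr4a3 stood at 5.95 and 5.94 CPM against 9.90, 9.86 and 7.84 CPM (-0.63), and Arc at 59.8 and 94.0 CPM against 45.3, 48.1 and 59.4 CPM (0.59). Of 14 cytoskeletal substrates 3 were positive and 11 negative, and in 0 of 14 were the lines apart (beside 9.79% above and 9.19% below of all genes tested), with differences from -0.22 (Dcx) to 0.19 (Map1b).

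Insulin and IGF signalling genes leaned to the higher side without a call. Of 17 tested, 13 were positive, and in 5 both J17b libraries lay above J1 lf/lf (29.4%, beside 9.79% of all genes tested). Insr, the insulin receptor, was at 90.5 and 90.9 CPM against 72.9, 77.6 and 74.8 CPM (log2 difference 0.27, SE 0.07, edgeR adjusted p = 0.451). Both Insr values also exceeded the highest of the other 15 libraries, 89.0 CPM. Igf1r and Igf2r, the IGF receptors, had log2 differences of 0.21 and 0.16, and Foxo1 and Foxo3, transcription factors that insulin restrains, 0.16 and 0.16. The list median was only 0.04 and was -0.02 without J17b replicate 2. As a list, J1 lf/lf stood at -0.11 to -0.02 log2 units from the median library, and the other 15 libraries at -0.03 to 0.06. J17b replicate 1, at -0.05, lay below the range of those 15, and replicate 2, at 0.08, above it.

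Glucocorticoid response genes were positive in 10 of 12, with a median of 0.21, and 5 of the 12 (41.7%, beside 9.79% of all genes tested) lay above J1 lf/lf in both J17b libraries. Sgk1, a kinase gene induced by the hormone, stood at 136 and 132.5 CPM against 78.1, 124 and 76.7 CPM (log2 difference 0.53, unadjusted p in edgeR 0.0199). The metallothionein gene Mt2 stood at 205.5 and 203 CPM against 128, 161 and 178 CPM, above the other 15 libraries as well (94.97 to 160 CPM), with a log2 difference of 0.39. J1 lf/lf was uneven in Sgk1 and its replicate 2 was close to J17b. Over leave-one-out fits the list median ran from 0.15 to 0.28. No gene of the list was called.

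Respiratory chain subunits were negative in 16 of 16, by very little, with a median of -0.07 and differences from -0.15 to -0.03. Cholesterol synthesis genes were negative in 16 of 18, with a median of -0.10, led by Dhcr7 at 29.1 and 27.9 CPM against 34.2, 31.5 and 35.0 CPM (-0.23 on the log2 scale). Without J17b replicate 2 the medians were -0.01 and -0.0026. Oligodendrocyte genes were negative in 10 of 10 (median -0.12), but only in 2 of 10 were both J17b libraries below J1 lf/lf (20%, beside 9.19% of all genes tested). The claudin of myelin Cldn11 was 1 of the 2, at 153 and 161 CPM against 170, 170 and 173 CPM. As a list, J1 lf/lf replicates 1 and 3 were high (0.18 and 0.12 log2 units above the median library), and replicate 2, at -0.06, was below J17b, at -0.0068 and -0.02. No member of these lists was called.

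Lists that mark brain regions had larger medians in several cases. Of 14 cerebellar genes 12 were positive, and 10 lay above J1 lf/lf in both J17b libraries (71.4%, beside 9.79% of all genes tested), with a median log2 difference of 0.42. Car8, a Purkinje cell gene, was at 317 and 515 CPM against 285, 241 and 249 CPM, and Itpr1, a calcium channel gene rich in the same cells, at 1447 and 1879 CPM against 1393, 1174 and 1214 CPM. Cbln3, of granule cells, was at 292 and 363 CPM against 243, 222 and 217 CPM. The unadjusted p of Car8, Itpr1 and Cbln3 in edgeR were 0.0781, 0.0231 and 0.166, and 0 of the 14 were called. The 2 negative members were Eomes and Barhl1, with log2 differences of -1.06 and -0.45. The summed level of the list was 3095 and 4071 CPM in J17b and 2524 to 2875 CPM in J1 lf/lf, with the other 15 libraries at 2204 to 3965 CPM. The median was 0.22 without J17b replicate 2. How much of each brain region a sample held is not stated, and its part in the results was not tested.

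Olfactory bulb genes were negative in 10 of 10, with a median of -1.33. Here J17b was ordinary, at -0.01 and 0.00 log2 units from the median library. J1 lf/lf replicates 2 and 3 were high, at 1.84 and 1.30, and replicate 1 was at -0.05. Tbx21, a factor of mitral cells, had 105 and 56 counts in J1 lf/lf replicates 2 and 3, 4 in replicate 1, and 0 and 5 in J17b. The median was -0.45 without J1 lf/lf replicate 2, and the part of these transcripts in the other differences was not tested.

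Anterior pituitary genes were negative in 8 of 8 through J1 lf/lf replicate 3 alone. Growth hormone (Gh) stood at 2372 CPM there and at 0 to 8.48 CPM in the other 4 libraries, and the list median went from -6.35 to 2.56 without it. Red blood cell genes were negative in 4 of 4, with a median of -0.50 that turned to 0.14 without the same library. Of 9 monoaminergic genes 6 were positive and 3 negative, with a median of 0.48. In 5 both J17b libraries lay above J1 lf/lf (55.6%, beside 9.79% of all genes tested), and in 1 below (11.1%, beside 9.19%). As a list, J17b stood at 0.11 and 0.22 log2 units from the median library, inside the J1 lf/lf range of -0.71 to 0.46. Slc6a4, the serotonin transporter gene, stood at 7.28 and 7.96 CPM against 1.06, 2.41 and 5.34 CPM. Tph2, which encodes the serotonin-making enzyme, stood at 15.6 and 16.96 CPM against 2.73, 6.67 and 12.8 CPM. Neither passed the threshold (edgeR adjusted p = 1 for both), and Dbh of the same list pointed the other way. Astrocyte and microglial genes differed little, with medians of 0.02 and -0.02, which changed sign without J1 lf/lf replicate 2 and replicate 3 respectively. Of the astrocyte genes, Slc1a2 stood at 3320 and 3452 CPM against 2969, 2767 and 2699 CPM (0.27 on the log2 scale).

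**Figure D3:**
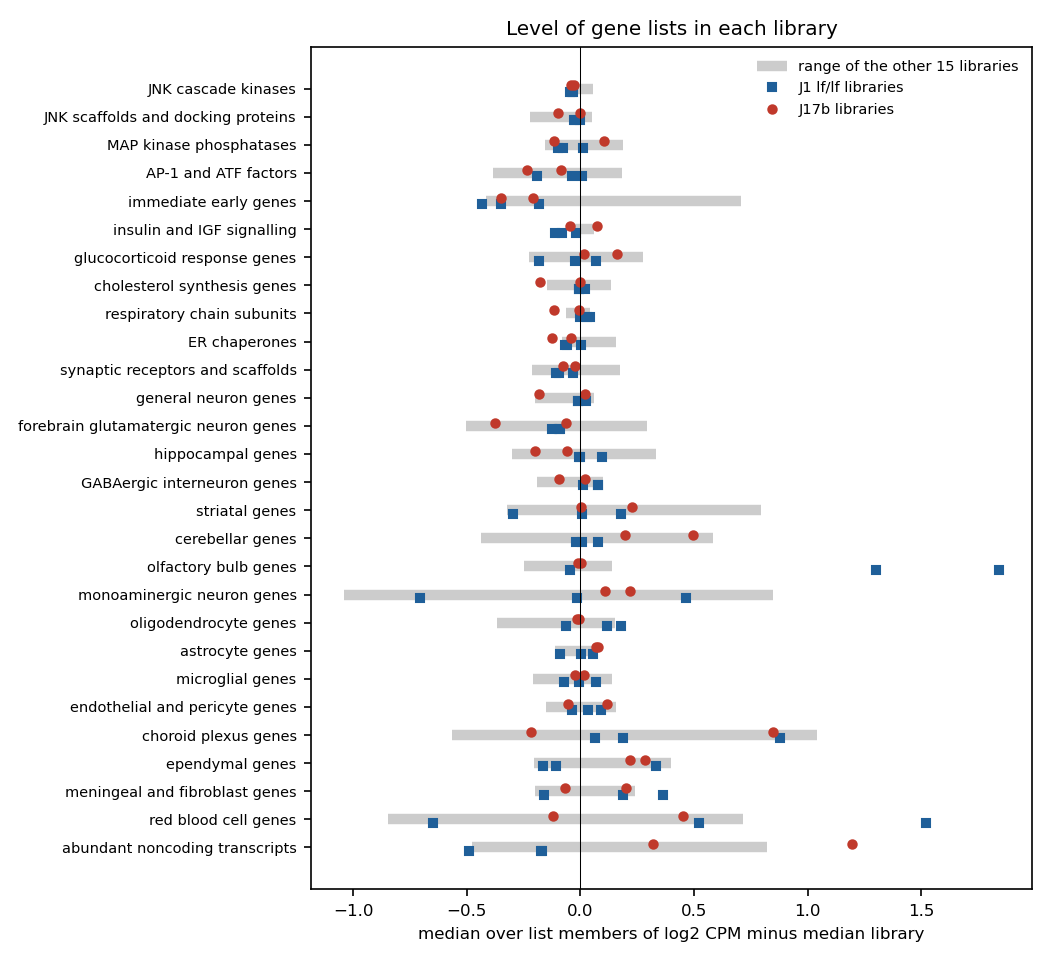
Each row is a gene list and each point a library, placed by the median over the list's genes of log2 CPM minus the gene's median over the 20 libraries; grey bars span the other 15 libraries. J1 lf/lf replicates 2 and 3 stand at 1.84 and 1.30 for olfactory bulb genes, and J17b replicate 2 at 1.19 for abundant noncoding transcripts, each outside the grey bar. The tested members of that last list are Rn45s, Malat1, Meg3, Snhg11, Neat1, Lars2, Rpph1 and Rmrp. Lars2 is annotated as protein coding, and Rpph1 and Rmrp were not abundant (J17b means 1.04 and 0.37 CPM).

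Length and class of transcript went with direction. The 382 genes that were higher at an unadjusted p below 0.05 in edgeR with no overlap of the lines had a median longest transcript of 5001 bases, against 3360 for all genes tested and 2892.5 for the 198 such lower genes. Among the annotated ones 10.5% of the higher genes were not protein coding, against 4.42% of all and 2.66% of the lower. In 309 of the 382 (80.9%) J17b replicate 2 was above replicate 1, while over all genes tested this share was 50.6%. With genes sorted by transcript length into 5 equal bins, the median difference of J17b replicate 2 from J1 lf/lf went from -0.10 in the shortest bin to 0.10 in the longest. For replicate 1 both ends were at 0.01. The long synaptic gene Grin2b, a glutamate receptor subunit with a longest transcript of 24060 bases, was at 245 and 288 CPM against 175, 189 and 179 CPM (log2 difference 0.56, edgeR adjusted p = 0.341). The part of transcript length in the differences was not tested gene by gene.

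**Figure D4:**
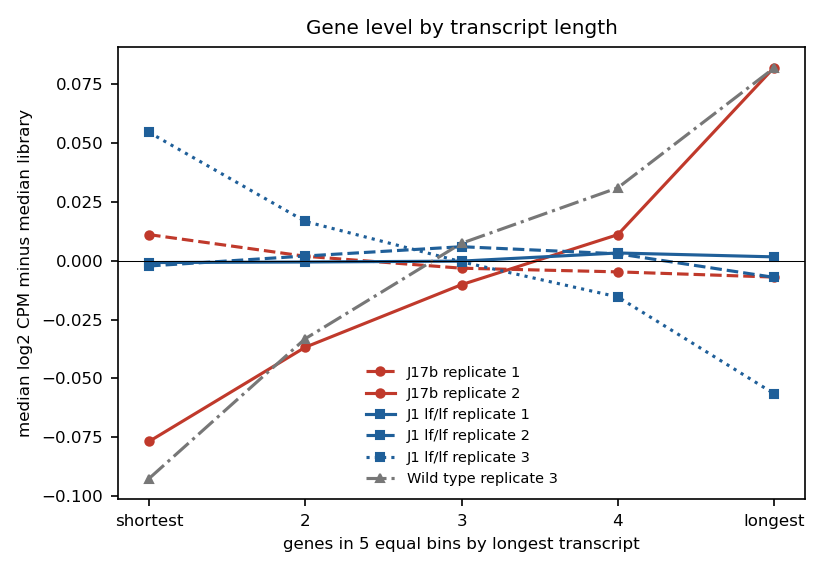
Genes in 5 equal bins by longest transcript run from left to right, and the median of log2 CPM minus the median library is plotted for the 5 libraries and for Wild type replicate 3. J17b replicate 2 climbs with length as Wild type replicate 3 does, J1 lf/lf replicate 3 falls, and J17b replicate 1 stays near 0.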

How the data were processed

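Poly(A)-selected RNA of mouse brain was sequenced as read pairs of 150 bases, per the labels' protocols. The authors deposited estimated counts and TPM values per gene, made with RSEM after cutadapt on mm10, per the submitters' processing notes. Versions, annotation and strand use were not given in the sources used here. The deposited estimated counts (4.11% not whole, since RSEM divides ambiguous reads) were rounded.

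In R 4.3.3, edgeR 4.0.16 (TMM factors 0.975 to 1.03, filterByExpr, robust quasi-likelihood) fitted all 20 libraries, a mean per group, because 2 against 3 libraries leave few degrees of freedom (biological coefficient of variation 0.120). CPM are TMM-scaled. Genes were annotated from GENCODE M21. Alternatives used DESeq2 1.42.0, limma 3.58.1 on log2(TPM + 1) and log2(TPM + 0.1), other filters, covariates and left-out libraries.

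Named were the JNK genes, Ide and Btaf1, every called gene, the 15 of smallest p and 6 of largest difference each way (mean logCPM at least 1, no overlap), and the 3 of smallest p in each list; 1 gene that the rule names is not reported here. Further list members named in the text were picked with their values in view. The comparison and the lists were chosen with earlier results of these data known. No library pair within the lines differed as little as sampling noise (chi-square per degree of freedom at least 10.2). On simulated counts for J17b against J1 lf/lf (16063 genes, 200 changed, 3 simulations), the test recovered 2.49% of genes changed 1.2-fold, 32.8% at 1.4-fold and 86.9% at 2-fold, and 6.54% of calls were false.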

Additional observations from a re-analysis of the deposited data

Results flagged for a closer look

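Gt(ROSA)26Sor, a noncoding RNA made from the Rosa26 locus, was the single gene for which the difference between J17b and J1 lf/lf was itself different from that between J27b and J2 lf/lf. The difference of the differences was -4.72 on the log2 scale (SE 0.37, edgeR adjusted p = 2.06e-07). J17b and J1 lf/lf stood at 6.10 ± 0.036 (SD, n = 2) and 5.63 ± 0.35 CPM (SD, n = 3), a log2 difference of 0.12. J27b stood at 5.98 ± 0.48 CPM and J2 lf/lf at 0.196 ± 0.11 CPM (SD, n = 3 each), with J2 lf/lf the lowest of these groups. The value was called without each of the libraries of these 4 groups in turn, from -5.25 to -4.40.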

How the results depend on the processing

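For J17b against J1 lf/lf, 5 genes were called. The count was 22 with the DESeq2 Wald test (18 higher, 4 lower, all 5 among them), 2 with limma on log2(TPM + 1) or log2(TPM + 0.1), and 0 with only the 2 groups in the edgeR fit (685 at an unadjusted p below 0.05), with Rn45s left out (690) or with a term for title numbers above 10 (1034). Leaving out 1 library gave 0 to 24. With Rn45s left out the other 4 had an adjusted p of 0.0571. Of 40 genes followed, 36 kept their direction in all alternatives. These 36 were called or ranked, with no overlap of the lines, in these same data, so the count is no test of the results. The 4 that turned, Mapk9, Mapk10, Ide and Btaf1, were named without regard to rank. With the title number term Rn45s went from 3.29 to 1.85, Lars2 from 2.71 to 1.70 and Malat1 from 1.87 to 1.22, Mapk10 turned to -0.12, Ide to -0.13 and Mapk9 to -0.091. Leaving out 1 library, Ide ranged from -0.099 to 0.14 (lowest without J17b replicate 2), Btaf1 from -0.074 to 0.0998 (negative without J17b replicate 2 or J1 lf/lf replicate 3, -0.055) and Mapk9 from -0.018 to 0.021 (negative without J1 lf/lf replicate 3 or J17b replicate 1, -0.0012). Libraries of the same replicate number had correlations of -0.14 and -0.16, which cannot decide whether replicate numbers pair the libraries. With 2 J17b libraries centred on their mean, each is the mirror image of the other. With the replicate block 4 genes were called, Mapk8 was at -0.55 (adjusted p = 0.148) and Mapk9 at -0.047. The difference of the differences, 1 gene, gave 6 with the DESeq2 Wald test, 4 with only its groups, 2 with the replicate block and 1 to 2 without 1 library. The causes were not tested. Changes under 1.4-fold would mostly be missed at this number of libraries.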
